A study of Mus musculus with 2 samples.

Results

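The glucocorticoid system of the fetal mouse lung was followed here in 9 genes. They were the receptor gene Nr3c1, the steroid dehydrogenase genes Hsd11b1 and Hsd11b2, and 6 genes that glucocorticoids induce, namely Fkbp5, Tsc22d3, Per1, Zbtb16, Sgk1 and Crispld2. They were chosen by symbol. The platform annotation assigned 23 probe sets to 1 of these genes alone, out of 34945 probe sets that name 1 gene and stand for 18193 genes. All 23 were used on both arrays, and 19 of them, with at least 1 for each of the 9 genes, had a signal above the background floor on at least 1 array.

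Whole lungs came from E15.5 embryos, in the pseudoglandular period of airway branching, of TAZ-deficient mice and of wild type littermates. TAZ is a transcriptional coactivator encoded by Wwtr1 and restrained by the Hippo kinase cascade. Total RNA of 4 samples was pooled per genotype, and each pool was hybridised to 1 Affymetrix mouse array, so that there is 1 TAZ-deficient array and 1 wild type array. No hormone or drug is named for either group. The sources used here do not give the strain, the making of the TAZ allele or the cells it affects. With 1 array per group a difference below carries neither a standard error nor a p-value, and its precision is limited by there being 2 arrays in all. In a whole lung, fewer cells of a type and less RNA per cell cannot be told apart.

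Glucocorticoids are steroid hormones that cross the cell membrane and bind the receptor encoded by Nr3c1, which waits in the cytosol in a complex with HSP90 and its cochaperones. The occupied receptor enters the nucleus and binds response elements in DNA, in many cases as a dimer on a palindrome of 2 half-sites. How much active hormone a cell sees depends on 2 enzymes that act in opposite directions, HSD11B1, which regenerates active corticosterone from an inert precursor, and HSD11B2, which inactivates it. In the fetal lung this hormone is known for driving maturation late in gestation, when the mesenchyme thins and the surfactant system matures.

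The promoters that could be searched differed in whether they held the receptor's recognition letters. RefSeq promoter windows (GRCm38.p6, 250 bases before to 50 bases after a transcript start) matched 6 of the 9 genes, with 14 windows in all. These were the enzyme gene Hsd11b1 and the induced genes Crispld2, Fkbp5, Per1, Sgk1 and Tsc22d3. Nr3c1, Hsd11b2 and the induced gene Zbtb16 had no window and were not searched. The full palindrome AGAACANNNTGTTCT was searched on both strands and was found in 3 of 32851 promoter windows (0.0091%), 1 of which belonged to Sgk1. Its half-site AGAACA, which is contained in the full palindrome, was found in 6233 windows (18.97%) and in 4 of the 14 windows searched here, 3 of Sgk1 and 1 of Tsc22d3. The E-box CACGTG, the element read by the circadian clock proteins, was found in 2349 windows (7.15%) and in 4 of the 14, in Crispld2, Fkbp5, Per1 and Sgk1. The cAMP response element TGACGTCA was found in 588 windows (1.79%) and in 0 of the 14. A match describes letters in a window and is no evidence of binding, and the probe sets do not tell which start site was used. The 5 stretches below are the 250 bases before a start, 5′ to 3′ on the gene's strand, with every match to these motifs in capitals. They are shown because they set the one full palindrome beside a Sgk1 start without it, a lone half-site, and windows with an E-box only.
Sgk1 (chr10:21993640-21993889, + strand): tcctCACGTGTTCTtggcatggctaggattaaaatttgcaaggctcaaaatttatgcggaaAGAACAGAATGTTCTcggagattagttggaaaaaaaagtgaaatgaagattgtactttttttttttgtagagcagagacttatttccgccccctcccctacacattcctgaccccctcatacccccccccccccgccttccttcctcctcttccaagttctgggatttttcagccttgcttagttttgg
Sgk1 (chr10:21994416-21994665, + strand): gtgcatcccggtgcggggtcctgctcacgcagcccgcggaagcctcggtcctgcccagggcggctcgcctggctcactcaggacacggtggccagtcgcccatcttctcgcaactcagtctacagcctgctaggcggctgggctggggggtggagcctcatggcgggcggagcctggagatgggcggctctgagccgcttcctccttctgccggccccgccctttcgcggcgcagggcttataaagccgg
Tsc22d3 (chrX:140600523-140600772, - strand): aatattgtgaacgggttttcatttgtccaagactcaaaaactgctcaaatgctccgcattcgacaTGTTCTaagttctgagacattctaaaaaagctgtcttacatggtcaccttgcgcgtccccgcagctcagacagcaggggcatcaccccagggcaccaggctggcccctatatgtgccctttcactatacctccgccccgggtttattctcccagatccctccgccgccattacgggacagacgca
Per1 (chr11:69098699-69098948, + strand): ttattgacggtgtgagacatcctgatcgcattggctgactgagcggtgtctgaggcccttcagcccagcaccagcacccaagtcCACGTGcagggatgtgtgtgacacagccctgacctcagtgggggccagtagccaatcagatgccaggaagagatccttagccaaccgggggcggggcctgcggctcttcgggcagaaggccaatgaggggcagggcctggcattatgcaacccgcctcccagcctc
Fkbp5 (chr17:28486150-28486399, - strand): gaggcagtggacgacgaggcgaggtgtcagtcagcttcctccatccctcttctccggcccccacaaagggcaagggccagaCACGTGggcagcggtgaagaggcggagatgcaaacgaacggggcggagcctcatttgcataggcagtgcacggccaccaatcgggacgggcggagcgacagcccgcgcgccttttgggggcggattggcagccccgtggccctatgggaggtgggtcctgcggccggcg

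In the first stretch the full palindrome reads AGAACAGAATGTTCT and lies at chr10:21993701-21993715, beginning 189 bases before that transcript start and 965 bases before the most downstream of the 6 Sgk1 starts. The first run of capitals in it is an E-box that overlaps a half-site. The second stretch, at the most downstream Sgk1 start, holds none of the motifs. The Tsc22d3 half-site begins 185 bases before its start, and the E-boxes of Per1 and Fkbp5 begin 166 and 169 bases before theirs.

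Signals are linear intensity values as deposited, each array having been scaled as a whole. The floor was the median of all non-control signals, 15.2 units. Signals below it were set to it before ratios were formed, always with the TAZ-deficient signal on top, and a gene was called measured when its brightest probe set was above the floor on either array. Wwtr1 followed the labels of the arrays, as its brightest probe set read 11.3 in the TAZ-deficient pool and 791.2 in the wild type pool, at least 52.1-fold lower. The maximum signal was 5541.4 on the TAZ-deficient array and 5348.1 on the wild type array, and the median was 15.1 on the TAZ-deficient array and 15.2 on the wild type array. Lung identity was clear on both arrays, all 10 lung epithelium markers and all 10 lung mesenchyme markers being measured (surfactant protein C, Sftpc, 4121.5 in the TAZ-deficient pool and 4142.5 in the wild type pool). Markers of other organs were at or below the floor on both arrays for 6 of 7 adrenal cortex genes, 5 of 7 liver genes and 5 of 6 kidney genes. Heart markers were an exception, 5 of 8 being measured (Actc1 435.1 in the TAZ-deficient pool and 551.9 in the wild type pool). Of these 5 heart genes, 3 were lower by 1.5-fold, as given below.

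None of the 9 genes differed by 1.5-fold between TAZ-deficient and wild type lung at its brightest probe set, and neither did any of the 19 probe sets above the floor. Of all 12032 measured genes 2.73% did, and of all 21294 probe sets above the floor 3.4%. In log2 ratio the 9 genes ran from -0.21 (Hsd11b1) to 0.39 (Crispld2), with 5 above 0 and 4 below. Their median was 0.02, against -0.01 over all measured genes. At the smaller step of 1.2-fold, 4 of 9 genes were higher in TAZ-deficient lung (44.4%) and 0 lower, against 18.6% of measured genes past that step in either direction, 8.01% higher and 10.6% lower. The 4 were Hsd11b2, Zbtb16, Sgk1 and Crispld2. Without shared probe sets the split was 3 higher and 1 lower, as Crispld2 then lay below wild type.

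That count has to be read with signal strength, since dim genes pass a small fold more often. A split at the 75th percentile of all signals, 106.3 units, was chosen after the values were seen. Of measured genes below it 32.9% passed 1.2-fold in either direction, and of the 5 genes of the system below it (Hsd11b1, Hsd11b2, Per1, Zbtb16 and Crispld2) 3 did. Of measured genes at or above it 7.92% passed, and of the 4 genes there (Nr3c1, Fkbp5, Tsc22d3 and Sgk1) only Sgk1 did. No test was made of either count.

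The receptor was expressed at like levels in both genotypes. The brightest Nr3c1 probe set, 1421867_at, read 420.4 in the TAZ-deficient pool and 458.2 in the wild type pool, a log2 ratio of -0.12 (1.09-fold lower). The second, 1460303_at, read 448.5 in the TAZ-deficient pool and 420.0 in the wild type pool, 1.07-fold higher. These probe sets thus point in opposite directions by similar small amounts. The third, 1421866_at, read 224.2 in the TAZ-deficient pool and 230.1 in the wild type pool. The largest difference was that of 1457635_s_at, which read 201.6 in the TAZ-deficient pool and 162.3 in the wild type pool (1.24-fold higher), while 1453860_s_at read 57.4 in the TAZ-deficient pool and 60.0 in the wild type pool. The sixth, 1431378_at, was below the floor on both arrays. Of the 5 probe sets above the floor 2 were higher and 3 lower, with a median log2 ratio of -0.04. The mineralocorticoid receptor gene Nr3c2, which encodes a second receptor that binds corticosterone, was below the floor on both arrays (9.6 in the TAZ-deficient pool, 12.6 in the wild type pool).

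The enzyme genes pointed in opposite directions. Hsd11b1, the activating enzyme, read 53.8 in the TAZ-deficient pool and 62.2 in the wild type pool, a log2 ratio of -0.21 (1.16-fold lower). Hsd11b2, the inactivating enzyme, read 57.1 in the TAZ-deficient pool and 47.5 in the wild type pool, a log2 ratio of 0.27 (1.2-fold higher). Each rests on 1 probe set. The log2 ratio of Hsd11b2 exceeded that of Hsd11b1 by 0.47, so that the signal of Hsd11b2 relative to Hsd11b1 was 1.39-fold higher in TAZ-deficient lung, a contrast chosen because the enzymes oppose each other. As a yardstick for 1 ratio, the brightest and second brightest probe sets of 1 gene disagreed with an SD of 0.20 on the log2 scale. It is the SD of the difference divided by the square root of 2, over 5637 genes bright and dim, and holds no variation between embryos, pools or arrays. It is not matched to the contrast of the enzymes, which joins 2 ratios of dim genes and so has a larger spread. H6pd, which supplies the cofactor that HSD11B1 needs to run in its activating direction, read 185.3 in the TAZ-deficient pool and 184.7 in the wild type pool.

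**Figure D1:**
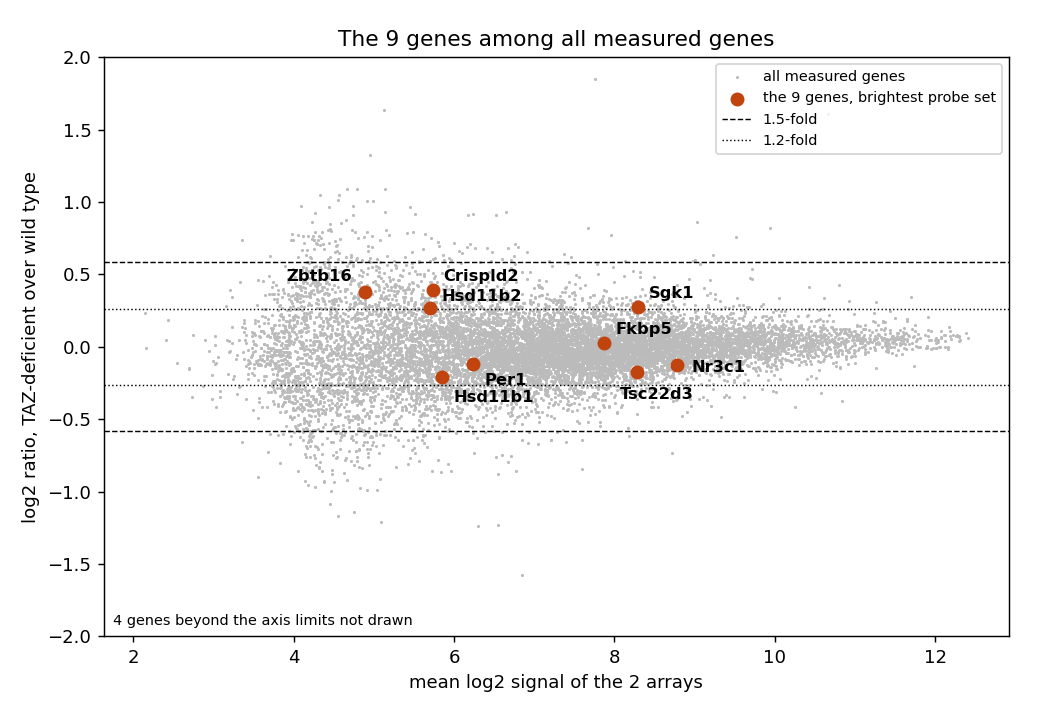
Log2 ratio (TAZ-deficient over wild type) against the mean log2 signal of the 2 arrays for all measured genes (grey) and the brightest probe set of the 9 genes (red), with lines at 1.2-fold and 1.5-fold. All 9 lie inside the 1.5-fold lines, and the spread of the grey points widens toward low signal, where Zbtb16, Crispld2 and Hsd11b2 lie; 4 genes fall beyond the vertical limits.

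Among the induced genes, Fkbp5, Tsc22d3 and Per1 stayed within 1.2-fold of wild type at every probe set above the floor. Fkbp5 encodes FKBP51, a cochaperone that dampens the receptor and is itself induced by it. Its brightest probe set, 1416125_at, read 236.4 in the TAZ-deficient pool and 232.5 in the wild type pool (1.02-fold higher), whereas 1448231_at read 100.7 in the TAZ-deficient pool and 115.8 in the wild type pool (1.15-fold lower). The third was below the floor on both arrays. Fkbp5 therefore had no direction that its probe sets shared.

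Tsc22d3 encodes GILZ, a leucine zipper protein that mediates part of the anti-inflammatory action of glucocorticoids. Its brightest probe set, 1420772_a_at, read 293.6 in the TAZ-deficient pool and 331.9 in the wild type pool, a log2 ratio of -0.18 (1.13-fold lower). The second, 1425281_a_at, read 250.4 in the TAZ-deficient pool and 256.9 in the wild type pool (1.03-fold lower), and the third, 1425557_x_at, read 63.0 in the TAZ-deficient pool and 54.1 in the wild type pool (1.16-fold higher). The sign of the dimmest of the 3, which carries the suffix of a cross-hybridising set, was opposite to that of the other two.

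Per1, a repressor in the circadian clock that glucocorticoids also induce, read 72.6 in the TAZ-deficient pool and 78.7 in the wild type pool on its single probe set, a log2 ratio of -0.12 (1.08-fold lower). Of measured genes, 48.2% had a ratio at least this far from 0. Its relatives also read lower in the TAZ-deficient pool, Per2 with 38.2 against 41.2 in wild type and Per3 with 14.5 against 23.9 in wild type. Per3 was at least 1.57-fold lower, its TAZ-deficient signal being under the floor.

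Sgk1 had the clearest difference among the bright genes. It encodes a serine/threonine kinase that keeps epithelial sodium channels at the cell surface, and it is the gene whose upstream window holds the full palindrome printed above. Its single probe set, 1416041_at, read 344.5 in the TAZ-deficient pool and 285.0 in the wild type pool, a log2 ratio of 0.27 (1.21-fold higher). Of measured genes, 92.5% had a lower ratio, and 17.3% had a ratio at least as far from 0 in either direction. The log2 ratio stayed between 0.26 and 0.31 under the 8 alternative ways of processing. The alternative floors and probe set rules could not change it, since its single probe set is bright and not shared. The remaining alternatives recomputed the ratio from the same pair of signals. Because Sgk1 has 1 probe set, no second reading within these arrays bears on it.

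Zbtb16 encodes PLZF, a zinc finger repressor that is strongly induced by glucocorticoids in several cell types. Its brightest probe set, 1439163_at, read 33.9 in the TAZ-deficient pool and 26.1 in the wild type pool, a log2 ratio of 0.38 (1.30-fold higher). The second, 1419874_x_at, read 22.7 in the TAZ-deficient pool and 15.6 in the wild type pool (1.46-fold higher), the wild type signal lying just above the floor of 15.2. The third, 1427638_at, read 9.5 in the TAZ-deficient pool and 3.9 in the wild type pool, both below the floor. Zbtb16 was the only gene of the 9 with 2 probe sets above the floor that all pointed the same way. Both were dim, however, and the second carries the suffix of a cross-hybridising set.

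Crispld2 encodes a secreted protein of the lung mesenchyme, also known as late gestation lung 1, that glucocorticoids raise in fetal lung fibroblasts of the rat. Its brightest probe set, 1437056_x_at, read 60.9 in the TAZ-deficient pool and 46.4 in the wild type pool, a log2 ratio of 0.39 (1.31-fold higher). That set, which represents the gene in the counts above, carries the suffix of a cross-hybridising set. The next, 1434758_at, read 23.1 in the TAZ-deficient pool and 33.6 in the wild type pool, a log2 ratio of -0.54 (1.45-fold lower). The third, 1460458_at, read 25.5 in the TAZ-deficient pool and 21.1 in the wild type pool (1.21-fold higher). The ratio of 1434758_at was the lowest of the 19 probe sets above the floor, and the direction of Crispld2 depended on the probe set used.

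Across the system, 5 genes had at least 2 probe sets above the floor, and in 4 of them (Nr3c1, Fkbp5, Tsc22d3 and Crispld2) the probe sets differed in sign. Over all genes with at least 2 such probe sets, the brightest and second brightest had opposite signs in 41.3%. Of the 19 probe sets 10 were higher and 9 lower, and 8 passed 1.2-fold (42.1%), against 20.9% of the 21294 probe sets above the floor.

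**Figure D2:**
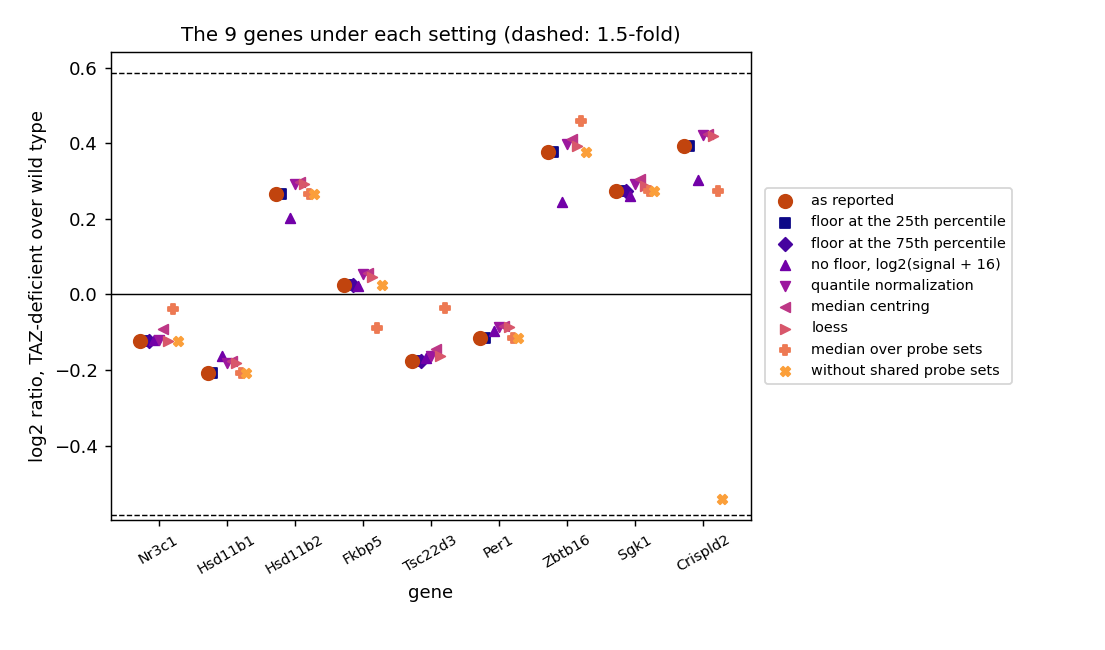
Log2 ratio (TAZ-deficient over wild type) for each of the 9 genes as reported (large red points) and under 8 alternative floors, normalizations and probe set rules. Crispld2 moves to -0.54 without shared probe sets, Zbtb16 spans 0.25 to 0.46, and Fkbp5 spans -0.09 to 0.06 and is below 0 with the median over probe sets; dashed lines mark 1.5-fold.

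The metallothioneins stood apart from the other glucocorticoid-induced genes. Of a further list of 43 such genes, 34 were measured, and 2 of them were at least 1.5-fold lower and 0 at least 1.5-fold higher, against 1.46% of measured genes lower and 1.26% higher. The 2 were Mt2, which read 25.1 in the TAZ-deficient pool and 212.4 in the wild type pool (8.46-fold lower), and Mt1, which read 66.6 in the TAZ-deficient pool and 198.6 in the wild type pool (2.98-fold lower) on a probe set with the shared-transcript suffix. Both genes encode small metal-binding proteins that respond to zinc as well as to glucocorticoids. The log2 ratio of Mt2 was -3.08. At their brightest probe sets the 6 induced genes among the 9 lay between -0.18 (Tsc22d3) and 0.39 (Crispld2). Their lowest probe set above the floor was 1434758_at of Crispld2, at -0.54. Whether the hormone has a part in the metallothionein difference was not tested. At 1.2-fold, 2 of the 34 genes were higher and 10 lower, against 8.01% of measured genes higher and 10.6% lower, so that past this step the list leaned the opposite way from the 9 genes above. This count too has to be read with signal strength, since 32.9% of measured genes below 106.3 units passed 1.2-fold in either direction. The number lower ran from 3 to 11 over the 8 alternatives. Under the 75th percentile floor it was 3 of 25 measured genes of the list, with 1 higher. Under the 25th percentile floor Tat and Il1r2 were past 1.5-fold as well, both higher. The median log2 ratio of the 34 genes was 0.01, with 17 above 0 and 17 below. It was below 0 under quantile normalization (-0.02), loess (-0.02) and the median over probe sets (-0.02).

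The other induced genes described here were chosen as examples after their values were seen. Klf9, a zinc finger factor that the receptor induces in many tissues, read 124.7 in the TAZ-deficient pool and 119.5 in the wild type pool. All 4 of its other probe sets above the floor were also higher, with log2 ratios between 0.01 and 0.20. Dusp1, a phosphatase that switches off MAP kinases, read 207.2 in the TAZ-deficient pool and 179.7 in the wild type pool. Nfkbia, the inhibitor of NF-kappaB, read 1054.2 in the TAZ-deficient pool and 1040.1 in the wild type pool, and was below 0 under quantile normalization and loess. Angptl4, a lipoprotein lipase inhibitor, read 89.5 in the TAZ-deficient pool and 124.3 in the wild type pool (1.39-fold lower), a log2 ratio of -0.47 that lay outside the central 90% of all measured genes (-0.37 to 0.34). Gadd45b, a stress-response gene, read 90.6 in the TAZ-deficient pool and 114.8 in the wild type pool (1.27-fold lower), with both of its other probe sets lower. Bcl6, a transcriptional repressor, read 38.8 in the TAZ-deficient pool and 47.9 in the wild type pool (1.23-fold lower), and the thiamine transporter gene Slc19a2 read 88.0 in the TAZ-deficient pool and 107.4 in the wild type pool (1.22-fold lower). Hif3a, which encodes a HIF alpha subunit, read 408.0 in the TAZ-deficient pool and 357.8 in the wild type pool, with all 4 of its other probe sets also higher. Classical liver targets, tyrosine aminotransferase (Tat) and Pck1, were below the floor on both arrays.

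Genes that carry, chaperone and assist the receptor were close to wild type signal. Of 15 measured chaperone and transport genes, 0 passed 1.5-fold in either direction (2.73% of all measured genes did). The 15 log2 ratios lay between -0.25 and 0.17, with a median of 0.05. Hspa8, a constitutive HSP70, read 4214.6 in the TAZ-deficient pool and 4077.6 in the wild type pool, though it was below 0 under loess and without shared probe sets. Hsp90aa1, the HSP90 that holds the receptor in its binding state, read 2862.2 in the TAZ-deficient pool and 2675.1 in the wild type pool. Fkbp4, which encodes the cochaperone that FKBP51 competes with, read 795.8 in the TAZ-deficient pool and 784.5 in the wild type pool, with a ratio below 0 under quantile normalization and without shared probe sets. Of 15 measured coregulators and partner factors, 0 passed 1.5-fold (2.73% of all measured genes did), with a median log2 ratio of 0.04. The brightest were Cebpb, a factor that acts with the receptor, which read 1107.6 in the TAZ-deficient pool and 1045.2 in the wild type pool, and the chromatin remodeller Smarca4, which read 791.7 in the TAZ-deficient pool and 723.9 in the wild type pool.

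Genes of hormone supply were mostly at background, as 10 of the 16 with a probe set were at or below the floor on both arrays. These included the steroidogenic enzymes Cyp11a1, Cyp11b1 and Cyp21a1, the plasma carrier Serpina6 and the corticotropin receptor Mc2r. Of the 6 measured genes of this list, 0 passed 1.5-fold (2.73% of all measured genes did). The brightest was Crh, which encodes corticotropin-releasing hormone and read 170.5 in the TAZ-deficient pool and 218.8 in the wild type pool (1.28-fold lower). Abcb1a, an efflux pump that exports steroids, was 1.48-fold higher (23.6 in the TAZ-deficient pool, 16 in the wild type pool), and Pomc, the corticotropin precursor, 1.47-fold higher (40.2 in the TAZ-deficient pool, 27.4 in the wild type pool). Both are dim, and with the arrays centred on their medians 2 genes of this list passed 1.5-fold.

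**Figure D3:**
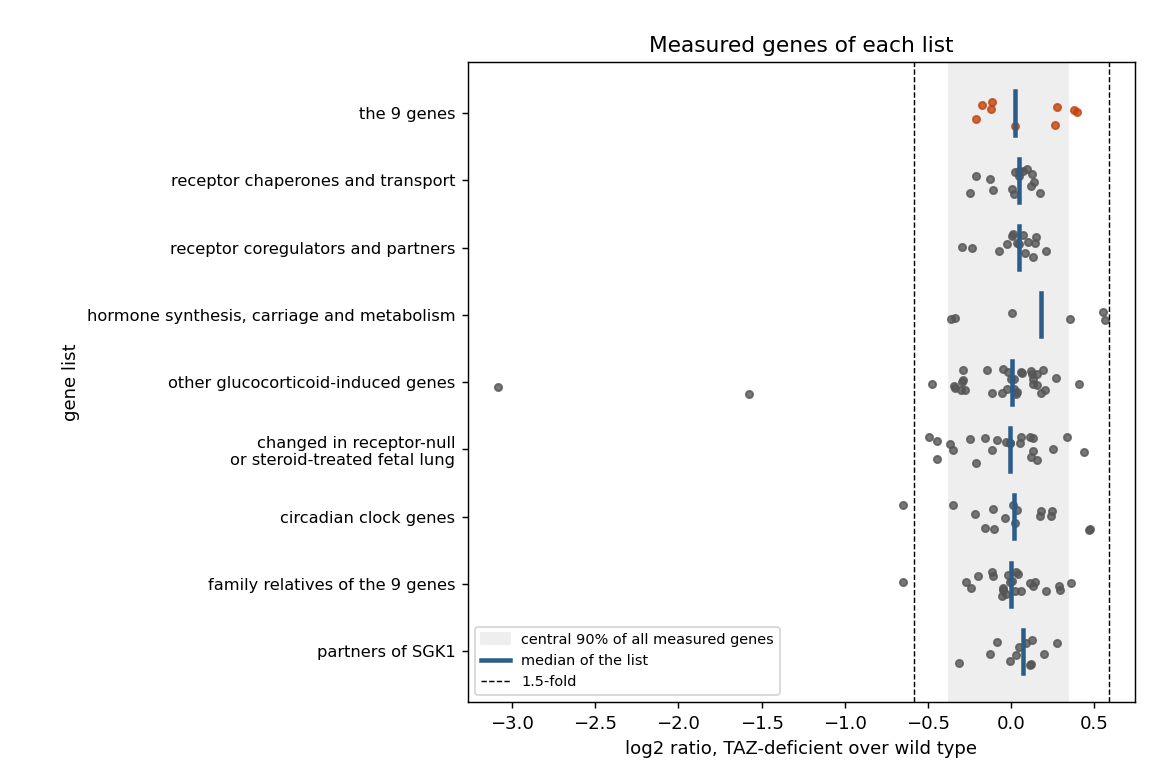
Log2 ratio (TAZ-deficient over wild type) for the measured genes of each list (points), with the list's median (blue bar), the central 90% of all measured genes (shaded, from -0.37 to 0.34) and 1.5-fold (dashed). List medians lie between -0.01 and 0.18, and Mt2 (-3.08) and Mt1 (-1.58) are the points far to the left.

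Genes that are known to change in receptor-null or steroid-treated fetal lung showed no member at 1.5-fold, against 2.73% of all measured genes. At 1.2-fold 2 of the list were higher and 5 lower, against 8.01% of measured genes higher and 10.6% lower. Without shared probe sets 1 gene of the list, Dlk1, an inhibitor related to Notch ligands, was past 1.5-fold (log2 ratio 0.62, higher), against 0.12 at its brightest probe set. Of 23 measured, 10 were above 0 and 13 below, with a median log2 ratio of -0.01 that was 0.03 with the arrays centred on their medians. The brightest were Sftpc, whose values are given above, and the growth factor gene Mdk (midkine), which read 2723.9 in the TAZ-deficient pool and 2622.6 in the wild type pool. Versican (Vcan), a matrix proteoglycan of the immature lung, read 309.6 in the TAZ-deficient pool and 282.9 in the wild type pool, all 3 of its probe sets being higher. Elastin (Eln) read 485.9 in the TAZ-deficient pool and 619.3 in the wild type pool (1.27-fold lower), and its second probe set was lower as well. Fasn, fatty acid synthase, read 454.3 in the TAZ-deficient pool and 359.7 in the wild type pool (1.26-fold higher).

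Of the 3 sodium channel subunits, which SGK1 and glucocorticoids act on, Scnn1a pointed the same way as Sgk1 by a small amount and the other two the opposite way. Scnn1a read 33.9 in the TAZ-deficient pool and 31.4 in the wild type pool (log2 ratio 0.11). Scnn1b read 21.5 in the TAZ-deficient pool and 29.3 in the wild type pool (1.36-fold lower), and Scnn1g read 29.3 in the TAZ-deficient pool and 41.2 in the wild type pool (1.41-fold lower). All 3 subunits were dim and had 1 probe set above the floor each. A list of SGK1 partners held Scnn1a but not Scnn1b or Scnn1g. Of its 12 measured genes, 0 passed 1.5-fold (2.73% of all measured genes did). The median log2 ratio of the 12 partners was 0.07, and -0.01 with the median over probe sets. Under the 25th percentile floor 1 of them, Kcnj1, was past 1.5-fold (higher). Among them were Nedd4, which encodes a ubiquitin ligase and read 3115.2 in the TAZ-deficient pool and 3134.2 in the wild type pool, and the kinase gene Wnk1, which read 889.9 in the TAZ-deficient pool and 873.9 in the wild type pool. Nedd4l, the ligase that SGK1 restrains, read 233.9 in the TAZ-deficient pool and 248.5 in the wild type pool.

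Per1 answers to the circadian clock as well as to the hormone, and the other clock genes lay on both sides of wild type. Of 16 measured clock genes, Per3 was the only one at 1.5-fold (2.73% of all measured genes were). On this list 9 genes were above 0 and 7 below, and the median log2 ratio was 0.02. Per3 did not pass with log2(signal + 16), where its log2 ratio was -0.39, and was not measured under the 75th percentile floor, while under the 25th percentile floor Bhlhe41 and Ciart were also past 1.5-fold, both higher. Clock, a clock activator, read 87.8 in the TAZ-deficient pool and 111.7 in the wild type pool (1.27-fold lower), with both of its other probe sets lower. Its partner Arntl read 54.2 in the TAZ-deficient pool and 55.7 in the wild type pool, and Nr1d1 was below the floor on both arrays. Dbp, an output gene of the clock, read 39.5 in the TAZ-deficient pool and 33.3 in the wild type pool. The time of day at which the lungs were taken is not given in the sources used here.

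Relatives of the 9 genes were evenly split in direction. Of 24 measured, Per3 was the only one at 1.5-fold (2.73% of all measured genes were), joined by Glipr1 (lower) without shared probe sets. On this list 12 genes were above 0 and 12 below. The median log2 ratio was 0.00, and 0.03 when the arrays were centred on their medians. Tsc22d1, the relative of GILZ, read 3016.9 in the TAZ-deficient pool and 3117.4 in the wild type pool, and all 4 of its other probe sets above the floor were lower too. Sgk3 read 113.3 in the TAZ-deficient pool and 122.6 in the wild type pool, but its 2 other probe sets above the floor had log2 ratios of -0.09 and 0.40, so that its direction depended on the probe set. Sgk2 was below the floor on both arrays. Crispld1 read 34.9 in the TAZ-deficient pool and 41.2 in the wild type pool (1.18-fold lower).

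Markers of several cell types differed between the pools while the 9 genes did not pass 1.5-fold, and their part in the small differences above was not tested. Of all measured genes, 1.26% were at least 1.5-fold higher and 1.46% lower. All 7 measured smooth muscle genes were lower, 2 by 1.5-fold (Cnn1 and Synpo2). Of these, Synpo2 alone passed under quantile normalization, median centring and loess, and neither did with log2(signal + 16) or under the 75th percentile floor. The summed signal of the list's 8 genes was 3726.1 in the TAZ-deficient pool and 4071.1 in the wild type pool. Acta2 among them was above 0 when the arrays were centred on their medians. All 5 measured heart genes were lower at their brightest probe set, 3 by 1.5-fold (Myl7, Myh7 and Tnnt2), with sums over the 8 genes of 591.9 in the TAZ-deficient pool and 769.3 in the wild type pool, and Myh6, Nppa and Ryr2 were below the floor on both arrays. Myl4 among them was above 0 (0.12) with the median over probe sets, and the heart genes lower by 1.5-fold numbered 2 with median centring and under both alternative probe set rules, 1 with log2(signal + 16) and 0 under the 75th percentile floor. The erythroid list summed to 3982.7 in the TAZ-deficient pool and 1838.4 in the wild type pool over 7 genes. Its 3 embryonic globins were at least 1.5-fold higher (1 without shared probe sets) and Trim10 lower. The largest part of both sums was the embryonic globin Hbb-y (2825.8 in the TAZ-deficient pool, 926.0 in the wild type pool). Of the 6 measured erythroid genes 3 were above 0 and 3 below. Beside Trim10, those below were Alas2 (609.2 in the TAZ-deficient pool, 662.4 in the wild type pool) and Epor (24.4 in the TAZ-deficient pool, 29.6 in the wild type pool). The leukocyte list summed to 1211.8 in the TAZ-deficient pool and 1256.2 in the wild type pool over 11 genes. S100a8, on a shared probe set, was at least 1.5-fold higher (not with log2(signal + 16) or the 75th percentile floor). Of the 8 measured leukocyte genes, however, 2 were above 0 and 6 below. C1qb was 1.37-fold lower (110.7 in the TAZ-deficient pool, 151.3 in the wild type pool). C1qa was 1.29-fold lower (121.4 in the TAZ-deficient pool, 156.4 in the wild type pool). Csf1r, at -0.01, was above 0 under quantile normalization, median centring and loess. The lymphocyte genes Cd3e, Cd79a and Rag1 were below the floor on both arrays. The epithelial list summed to 10837.6 in the TAZ-deficient pool and 10658.5 in the wild type pool, the mesenchymal list to 11489.8 in the TAZ-deficient pool and 11333.0 in the wild type pool, and the endothelial list to 2904.0 in the TAZ-deficient pool and 3091.3 in the wild type pool, with 0 genes of these 3 lists at 1.5-fold.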

How the data were processed

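RNA pools of TAZ-deficient and wild type whole lungs were measured on 1 array each. The deposited intensity values are linear and never negative, and GCOS and MAS5 are named without a version, per the submitters' processing notes. Both arrays had a mean of 100.001 after trimming the lowest and highest 2%, so the authors had scaled each as a whole.

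Of 45101 probe sets, 64 control sets were left out, 34945 name 1 gene, 932 name several, and 9160 are unlisted. RefSeq (GRCm38.p6) gave 34741 current symbols through Entrez identifiers. A gene was represented by its brightest probe set (mean log2 signal). Signals under the median, 15.2, were raised to it. Log2 ratios were counted at 1.5-fold and 1.2-fold without a test. List genes past 1.5-fold were named, at most 4 per list, or else the 2 brightest, and other examples were picked after their values were seen. The 9 genes and the lists were chosen with earlier results of these data known. Counting was tested on simulated data. Alternatives set the floor at the 25th or 75th percentile, used log2(signal + 16), applied quantile normalization, median centring or loess, or changed the probe set rule. Python 3.11.15, pandas 2.3.3 and statsmodels 0.14.6 were used.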

Additional observations from a re-analysis of the deposited data

How the results depend on the processing

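No paired analysis was possible because each genotype is 1 array. None of the 9 genes passed 1.5-fold under any of the 8 alternatives. The count of the 9 genes past 1.2-fold was 4 as reported, 1 under the 75th percentile floor (where 4 genes were measured), 1 with log2(signal + 16), and 4 under the other 6 alternatives. These 4 were all higher in 5 of the 6, and 3 higher and 1 lower (Crispld2) without shared probe sets. The count of all measured genes past 1.5-fold was 328 as reported, 1983 and 26 under the 25th and 75th percentile floors, and 131 with log2(signal + 16). The median log2 ratio of the 9 genes ranged from -0.05 to 0.06 and was below 0 under the 75th percentile floor and under both alternative probe set rules. Hsd11b1, Hsd11b2, Nr3c1, Per1, Sgk1, Tsc22d3 and Zbtb16 kept their sign wherever they were measured. Part of this was fixed in advance. Hsd11b1, Hsd11b2, Per1 and Sgk1 have 1 probe set each, so the probe set rules could not change them. Leaving out shared probe sets could not change Nr3c1 or Zbtb16, whose brightest probe sets are not shared, and left Tsc22d3 unmeasured. Crispld2 had a log2 ratio of -0.54 once shared probe sets were left out, and Fkbp5 of -0.09 when its probe sets were summarised by their median, both by the construction of those rules.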
